A study of Mus musculus with 12 samples.

Results

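Fear conditioning was compared with home cage in the mouse amygdala on 8 of the 12 bead arrays of the study, 4 labelled FC and 4 labelled HC. The members are arrays and were taken by their titles: FC 1 to FC 4 hold amygdala taken 2 hours after fear conditioning and HC 1 to HC 4 hold amygdala of mice kept in the home cage. All mice in both groups were male C57Bl/6J animals of 10 weeks, with no transgene or deletion named, and both sides of the amygdala were taken with a punch of 1 mm. The other 4 arrays of the study carried immobilization as well as fear conditioning (IMO_FC) and enter here only as an alternative. The labels do not say whether each array is 1 mouse or a pool, so the p-values below measure only the spread between these arrays. The series' own design text calls the conditioned groups fear expression or extinction, while the label of each array says fear conditioning, and the label is followed here.

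In fear conditioning a sound or a place is paired with a foot shock, and the amygdala stores the association. Glutamatergic neurons of its basolateral part receive the sensory input, and GABAergic neurons of its central part drive freezing and the hormonal stress response. Learning switches on immediate early genes such as Fos, Arc and Egr1 within minutes, the proteins of which then act on synapses and on further genes, while corticosterone released by the shock acts through its receptors on genes such as Fkbp5.

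Whether a probe rises above the negative control beads is given by its detection p-value, and a probe is called detected where this is under 0.05. On the HC arrays 47.49% to 50.7% of the 45281 probes were detected, and on FC 2 and FC 4 45.11% and 49.02%. FC 1 and FC 3 stood apart, with 11.69% and 15.94%. Their unnormalized signals also ranked the probes differently, with Spearman correlations to the 6 usable arrays from 0.224 to 0.312 for FC 1 and from 0.314 to 0.38 for FC 3, where the usable arrays reached 0.839 to 0.924 among themselves. Results are therefore given for HC 1 to 4 with FC 2 and FC 4. Values with all 8 arrays stand beside the main lists and are gathered for single genes at the end. The number of usable arrays limits the precision.

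**Figure D1:**
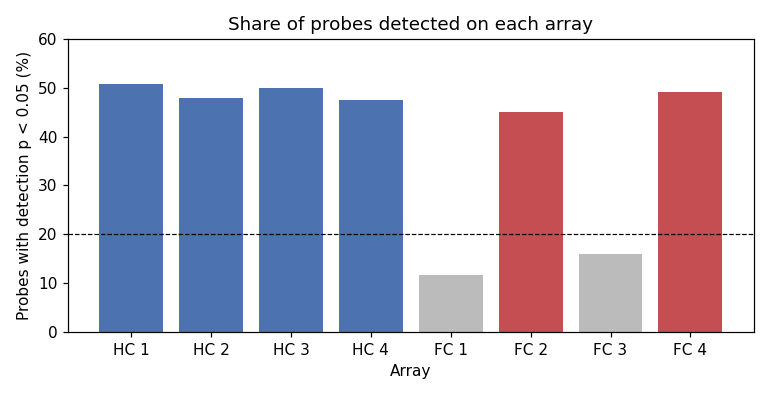
Share of the probes with a detection p-value under 0.05, in percent, on each array (HC blue, FC 2 and FC 4 red, FC 1 and FC 3 grey; the dashed line marks 20%). FC 1 and FC 3, at 11.69% and 15.94%, are the 2 arrays under the line.

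Markers of the labelled tissue were present. All 14 neuron markers on the array were detected on each of the 6 usable arrays, as were 25 of 27 markers of basolateral and cortical excitatory neurons and 16 of 23 of central amygdala and striatal neurons. Of the markers of hippocampus, thalamus and hypothalamus, which border the punch, 14 of 28 were detected on all 6. In bulk tissue fewer cells of a type and less RNA per cell cannot be told apart. FC 4 was closer to the HC arrays than to FC 2. Over the tested probes the Pearson correlation of normalized values was 0.886 between FC 2 and FC 4, 0.87 to 0.899 between FC 2 and the HC arrays, 0.933 to 0.957 between FC 4 and the HC arrays, and 0.908 to 0.945 within HC.

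No tested probe passed the adjusted test between FC and HC. The test took the probes that at least 4 of the 8 arrays detected, 20951 probes for 10808 genes, and values are log2 of the background-corrected and quantile-normalized intensity. With FC 2 and FC 4 against the 4 HC arrays, limma called 0 of 20951 probes (0%) at an adjusted p under 0.05, the lowest adjusted p was 0.994, and 961 probes (4.59%) had an unadjusted p under 0.05, 441 of them higher in FC and 520 lower. Without FC 4 the last count was 3009, without FC 2 it was 531, and in both cases 0 probes were called. FC is then a single array, assumed to vary as the HC arrays do. With all 8 arrays limma also called 0 probes (0%), with a lowest adjusted p of 0.456, and 1584 probes (7.56%) had an unadjusted p under 0.05, 288 higher and 1296 lower. Leaving out single arrays took that count from 427 (without HC 2) to 5244 (without FC 4). There the median difference over all tested probes was −0.326, against 0.00 with FC 2 and FC 4. The centre of the whole distribution thus lay lower with FC 1 and FC 3 in the fit.

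The replicate spread set the scale for every gene below. A probe's SD over the HC arrays had a median of 0.351 on the log2 scale, and FC 2 and FC 4 differed from each other by a median of 0.488. Since no gene passed the adjusted test, a gene is described as standing apart where both FC 2 and FC 4 lay outside the range of the 4 HC arrays and the means differed at least 1.5-fold. Of the 10808 genes, each by its brightest tested probe, 234 stood apart higher in FC (2.17%) and 313 lower (2.9%). These shares are the background against which each list below is read. They are not symmetric by construction, since 4 detected arrays can come from HC alone but not from FC 2 and FC 4 alone. With no detection filter, 711 probes stood apart higher and 742 lower, against 522 and 623 of the tested probes. For a single gene, an exact permutation test of 2 arrays against 4 has 15 arrangements and cannot give a p under 0.0667. Errors are limma's SE, with n = 2 FC and n = 4 HC arrays unless all 8 are named, and every adjusted p with FC 2 and FC 4 was 0.994 or higher.

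The gene of smallest p over the whole array lay outside the tested set. Cd180 encodes a Toll-like receptor homologue of B cells and macrophages. Its probe ILMN_2905717 had signals of 34.6, 52.9, 61.7 and 54.4 on HC 1 to 4, of 221 and 226 on FC 2 and FC 4, and of 36.5 and 57.7 on FC 1 and FC 3. It was detected on FC 2 and FC 4 only, so it could not reach the 4 detected arrays that the tested set requires. A second probe, ILMN_1236393, had signals of 33.7, 58.5, 68.8 and 55.5 on HC 1 to 4 and of 175 and 210 on FC 2 and FC 4. Both probes were thus high on the same 2 arrays and at background on the other FC and HC arrays, while the remaining probe was detected on none of the 8. Set against the lowest detected signal on the HC arrays, the probes were at least 6.4-fold and at least 5.27-fold higher on FC 2 and FC 4.

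In a limma fit over all 45281 probes, these were the 2 that passed, with adjusted p = 0.00463 and 0.0163. On the HC arrays the first probe was detected on 0 and read 4.29 to 4.44. Its SE was 0.08, where the median SE of the tested probes was 0.334. The p therefore rests in part on the spread of undetected values. With limma's prior variance following intensity and made robust, the adjusted p of the first probe was 0.187. The first was higher in FC under all alternatives tried, but its adjusted p ranged from 4.75e-05 to 0.985. Leaving out any array but FC 4 raised it over 0.05 (0.0518 to 0.115). On the 4 IMO_FC arrays its signal was 37.3 to 71.4 and detected on 0, and the second probe was detected on 1. Cd180 was picked after its values were seen. In all, 108 probes were detected on FC 2 and FC 4 and on no HC array, and 111 showed the reverse. Of these, 0 and 111 are in the tested set, so the latter passed the filter through HC. Ovol2, a zinc-finger transcription factor of epithelia, led the reverse, at least 3.44-fold lower in FC, and its second probe was at least 2.95-fold lower.

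Of 49 tested genes that glucocorticoids induce, 33 were higher in FC, with a median difference of 0.17 against −0.01 over all 10808 genes. As a list they stayed within HC: the mean deviation of the list from its HC mean was 0.12 on FC 2 and 0.04 on FC 4, and −0.18 to 0.17 on the HC arrays. Of the 49, 4 stood apart higher and 3 lower (14.3%, beside 5.06% of all genes). Fkbp5, the co-chaperone that holds the glucocorticoid receptor in its low-affinity state, read 7.61, 7.55, 7.26 and 6.97 on HC 1 to 4, and 8.22 and 7.70 on FC 2 and FC 4. FC 4 lay just above the highest HC array, and the difference was 0.61 ± 0.30. Tsc22d3 encodes the leucine zipper protein GILZ, an anti-inflammatory target of the receptor. It read 9.70, 9.80, 9.89 and 9.99 in HC and 10.01 and 10.29 in FC, a difference of 0.31 ± 0.24 without overlap but under 1.5-fold, and a second probe was at 0.81.

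Mertk is a receptor tyrosine kinase by which phagocytes take up dying cells. Its values were 7.23, 6.67, 7.51 and 7.55 in HC and 8.0 and 8.28 in FC, so both FC arrays lay above HC, by 0.90 ± 0.32. Mfsd2a, the transporter of lysophosphatidylcholine at the blood-brain barrier, differed by 0.92 ± 0.41, with FC 4 (8.42) only just above HC 2 (8.41). Arrdc2, an arrestin-domain protein, differed by 0.82 ± 0.32. On the lower side stood Sgk3, a kinase related to Sgk1, at −0.98 ± 0.43. Its second tested probe was at 0.54. Per1, a clock gene with a glucocorticoid response element, read 6.66, 6.39, 7.03 and 6.81 in HC and 5.90 and 6.37 in FC, a difference of −0.59 ± 0.29. Its second probe was at −0.71. Sgk1, a classical target, overlapped between groups (−0.49 ± 0.46).

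The receptors and their cofactors had no shared position on FC 2 and FC 4. Of 13 tested 3 were higher and 10 lower, with a median of −0.21, and 1 stood apart, which was Fkbp5. The mean of the list was −0.283 on FC 2, 0.0817 on FC 4 and −0.107 to 0.0748 on the HC arrays. Nr3c1, the glucocorticoid receptor, differed by −0.21 ± 0.27 and Nr3c2, the mineralocorticoid receptor, by −0.30 ± 0.40, both with overlapping groups. With all 8 arrays the glucocorticoid-induced list had a median of −0.67, beside −0.41 over all genes, and 13 of 49 were higher.

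Of 18 tested immediate early transcription factors 10 were higher, the median was 0.06, and 0 stood apart in either direction. Over all genes 5.06% stood apart, and for a list of 18 a count of 0 is near that share. The mean of the list was 0.26 on FC 2, −0.12 on FC 4 and −0.15 to 0.15 on the HC arrays. With all 8 arrays 7 of 18 were higher and the median was −0.32, beside −0.41 over all genes. Egr1, a zinc-finger factor needed for fear memory, read 11.89, 11.35, 11.68 and 11.49 in HC and 11.74 and 11.67 in FC, inside the HC range. Fos, the most used marker of neuronal activity, read 6.11, 5.86, 6.96 and 6.16 in HC and 5.83 and 5.60 in FC. Both FC arrays were thus just below the lowest HC array, by a mean difference of −0.55 ± 0.34 that missed the test and was under 1.5-fold. Nr4a1, an orphan nuclear receptor, differed by −0.04 ± 0.38, and Npas4, a factor specific to neuronal calcium signals, had 0 of 8 arrays with a detected probe.

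Among the effector genes that neuronal activity controls, 16 of 24 were higher (median 0.19), and the mean of the list was above HC on both FC arrays (0.18 and 0.13, HC −0.10 to 0.09). With all 8 arrays 7 of 24 were higher and the median was −0.45, near the −0.41 of all genes. Of the 24, 1 stood apart higher and 2 lower. Pcsk1, the protease that cuts prohormones in secretory granules, read 5.30, 5.46, 5.44 and 5.12 in HC and 6.40 and 5.74 in FC. Both FC arrays lay above HC, by 0.74 ± 0.28. Scg2, secretogranin II, a granule protein that such proteases process, read 10.20, 10.37, 10.38 and 10.47 in HC and 9.68 and 9.76 in FC. Here both FC arrays lay below HC, with a spread within each group smaller than the difference of −0.64 ± 0.23, and a second probe gave −0.64 as well. Without FC 2 the difference of Scg2 was −0.60 and without FC 4 −0.68. Per1 is the other gene that stood apart lower. Arc, a capsid-like protein of dendrites, overlapped between groups (−0.43 ± 0.44). Bdnf, the neurotrophin, read 6.98, 6.48, 5.78 and 5.53 in HC and 7.06 and 6.72 in FC, overlapping, with a difference of 0.70 ± 0.43, and 2 further probes gave 0.52 and 0.57.

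Pcsk1 and Scg2 are shown by their promoters because both are textbook targets of CREB, the factor that cAMP and calcium activate, and yet lay on opposite sides of HC. The motif searched was the full cAMP response element TGACGTCA, which reads the same on both strands, in RefSeq promoter windows of 300 bases on GRCm38.p6 from 250 bases before to 50 after a start. It occurs in 588 of 32851 windows (1.79%), and by gene in 549 of the 27025 genes with a window. Of the 16 tested effector genes with a window, 3 hold it (Pcsk1, Scg2 and Plk2). The windows below run 5′ to 3′ on the gene's strand, with the motif in capitals, and lie at chr13:75089607-75089906 (plus strand) for Pcsk1 and at chr1:79439977-79440276 (minus strand) for Scg2.
Pcsk1: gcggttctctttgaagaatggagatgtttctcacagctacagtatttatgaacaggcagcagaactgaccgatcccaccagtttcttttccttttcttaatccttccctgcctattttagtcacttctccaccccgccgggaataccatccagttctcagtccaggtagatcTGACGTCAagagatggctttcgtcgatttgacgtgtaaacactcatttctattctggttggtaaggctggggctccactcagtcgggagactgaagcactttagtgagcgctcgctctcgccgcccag
Scg2: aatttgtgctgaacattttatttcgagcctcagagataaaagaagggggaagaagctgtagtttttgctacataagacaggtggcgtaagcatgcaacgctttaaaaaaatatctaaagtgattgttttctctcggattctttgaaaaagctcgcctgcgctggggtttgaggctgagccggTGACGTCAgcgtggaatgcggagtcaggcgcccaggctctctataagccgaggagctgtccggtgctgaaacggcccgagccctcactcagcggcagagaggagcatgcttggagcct
The motif begins 78 bases before the start of Pcsk1 and 68 bases before that of Scg2. A match in a window is a description of the sequence and not evidence of binding.

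MAP kinases and their phosphatases had a median of 0.01, with 12 of 21 higher. Map2k6, the kinase that activates p38, stood apart. It read 5.36, 5.61, 4.93 and 4.67 in HC and 6.32 and 6.51 in FC, a difference of 1.28 ± 0.32. Its unnormalized signal was 39.9 on FC 1 and 72.2 on FC 3, below and inside the HC range of 53.6 to 100.2. Normalized in the fit of all 8 arrays, it read 6.82 on FC 1 and 7.54 on FC 3, above HC (4.57 to 5.29). The difference there was 1.61 ± 0.48 (limma, adjusted p = 0.456). Of FC 1 and FC 3, 1 detected it. It was detected on 3 of the 4 HC arrays, so its HC level lies near background. Of the 37 memory kinases and plasticity signalling genes 0 stood apart (median −0.01).

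**Figure D2:**
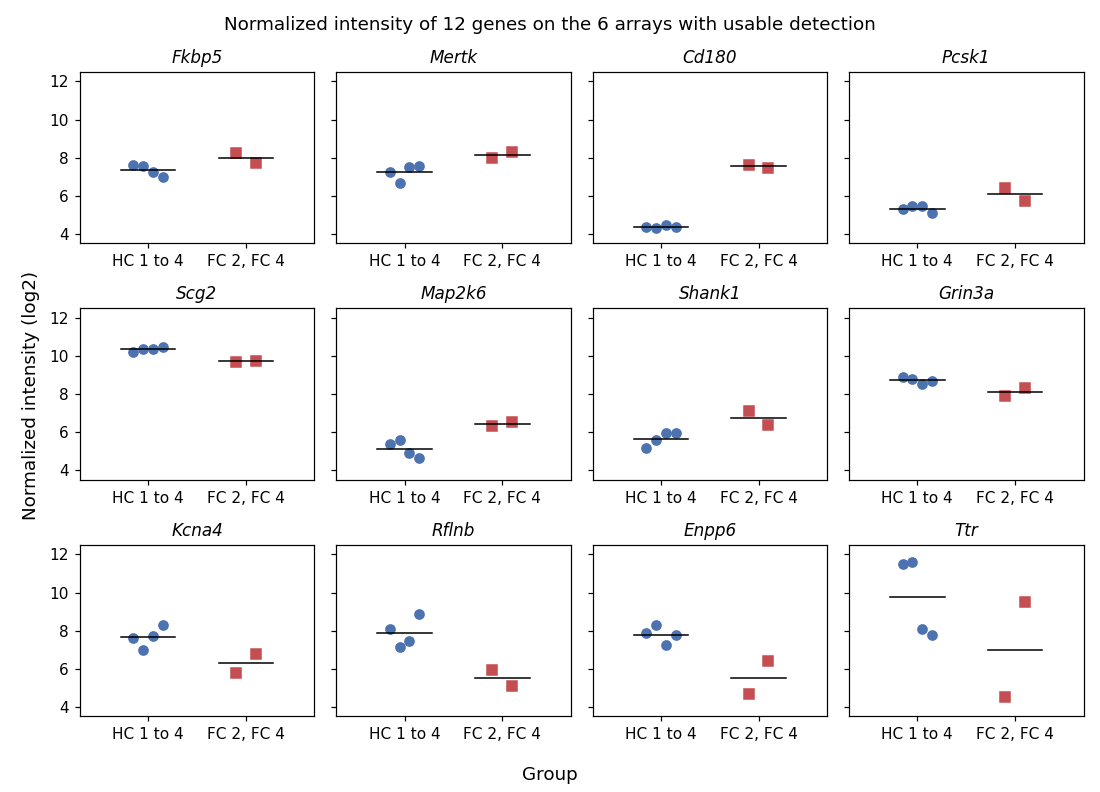
Normalized intensity (log2) of 12 genes on HC 1 to 4 (blue circles) and on FC 2 and FC 4 (red squares); black lines are group means. Both FC points lie outside the HC points for each gene but Ttr, where FC 4 (9.5) falls inside the HC range.

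Neuropeptide genes showed no shared direction. The opioid list had 3 of 7 tested genes higher (median −0.06) and 0 standing apart. Oprl1 encodes the nociceptin receptor. Its brightest probe read 8.08, 8.21, 7.52 and 7.48 in HC and 7.75 and 7.39 in FC, overlapping (−0.25 ± 0.31), while its other tested probes gave 0.86 and 0.81, so the probes of this gene disagree in direction. Pnoc, the nociceptin precursor, read 7.42, 6.94, 7.03 and 6.32 in HC and 6.00 and 7.60 in FC. Its 2 FC arrays fell on opposite sides of HC, which leaves a difference of −0.13 ± 0.48. Penk, the enkephalin precursor, differed by −0.06 ± 0.63.

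Of the tachykinins and their receptors 1 of 4 was higher (median −0.42). Tac2, the precursor of neurokinin B, read 6.61 on FC 2 and 4.72 on FC 4 beside 4.71 to 5.82 in HC (0.32 ± 0.54). Among 25 stress peptide genes and receptors, 1 stood apart in each direction (8%, near the 5.06% of all genes). Both are receptors of neuropeptide Y. Npy1r, which mostly sits after the synapse, read 6.56, 7.10, 5.98 and 5.52 in HC and 7.30 and 7.17 in FC (0.95 ± 0.43). Npy2r, mostly a presynaptic autoreceptor, read 6.30, 6.85, 6.68 and 6.39 in HC and 5.60 and 6.03 in FC (−0.74 ± 0.28). The FC arrays thus lay above HC for Npy1r, with FC 4 (7.17) next to HC 2 (7.10), and below for Npy2r. In the fit of all 8 arrays the differences were 0.16 ± 0.49 for Npy1r and 0.27 ± 0.60 for Npy2r. Crh was detected on 2 of the 8 arrays and was not tested.

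The transmitter lists differed in position. The GABA list had 9 of 18 genes higher (median 0.01) and 0 apart, and the monoamine and acetylcholine receptors 8 of 21 (median −0.18) and 0 apart. Of 26 glutamate receptors and transporters 13 were higher (median 0.00). Grin3a, an NMDA receptor subunit that lowers calcium flux, read 8.88, 8.82, 8.53 and 8.71 in HC and 7.93 and 8.34 in FC, below HC on both arrays (−0.60 ± 0.26). The endocannabinoid list had 7 of 12 higher (median 0.18), with its mean at 0.12 and 0.23 on FC 2 and FC 4 and at −0.09 to 0.04 in HC. In the fit of all 8 arrays 3 of 12 were higher (median −0.40, beside −0.41 over all genes). Dagla, the enzyme that makes 2-arachidonoylglycerol at synapses, stood apart at 0.76 ± 0.33, with FC 4 (5.84) just above HC 3 (5.82), and Cnr1, the cannabinoid receptor, overlapped (0.36 ± 0.40).

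At the synapse, scaffold and adhesion genes were higher in 22 of 32 cases, with a median of 0.15. The mean of that list was 0.10 on FC 2 and 0.18 on FC 4, above the HC range of −0.06 to 0.05. The fit of all 8 arrays had 3 of 32 higher and a median of −0.62, beside −0.41 over all genes. Shank1, a scaffold protein of the postsynaptic density, read 5.15, 5.61, 5.94 and 5.94 in HC and 7.10 and 6.39 in FC. Dlgap3 (SAPAP3), which binds Shank proteins, read 5.87, 5.37, 5.37 and 5.73 in HC and 6.35 and 6.12 in FC. Both FC arrays were above HC for each gene, by 1.08 ± 0.34 for Shank1 and by 0.65 ± 0.27 for Dlgap3. In the vesicle release list 23 of 36 were higher (median 0.07). Unc13b (Munc13-2), which primes vesicles, stood apart at 1.22 ± 0.58, with FC 4 (7.50) just above HC 3 (7.43). Of 37 actin and spine regulators 17 were higher (median −0.04), and 1 stood apart. Rflnb, a filamin-binding protein, read 8.06, 7.16, 7.45 and 8.87 in HC and 5.93 and 5.12 in FC. The lowest HC array was more than a full log2 unit above FC 2, and the difference was −2.36 ± 0.50.

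Potassium channel genes were higher in 27 of 36 cases, with a median of 0.18. Over the alternatives of the fit with FC 2 and FC 4 the median was 0.126 to 0.298. In the fit of all 8 arrays it was −0.55 and 12 of 36 were higher, beside −0.41 and 3437 of 10808 over all genes. The list mean was 0.0958 on FC 2 and 0.156 on FC 4, and the highest HC array, at 0.0954, lay just under FC 2. Of the 36, 3 stood apart higher and 1 lower (11.1%, beside 5.06% of all genes). Kcnj6, the inward rectifier GIRK2 that Gi-coupled receptors open, read 7.41, 7.48, 7.66 and 7.51 in HC and 9.0 and 7.95 in FC (0.96 ± 0.33), although a second probe was at −0.46. Kcnip1, a subunit of A-type channels, was at 1.08 ± 0.38 with a second probe at −0.25, and Kcnj2, an inward rectifier, at 0.67 ± 0.31. Kcna4, which forms fast inactivating channels, read 7.63, 6.97, 7.71 and 8.29 in HC and 5.79 and 6.78 in FC, and so lay below HC by −1.36 ± 0.43. Among 25 sodium and calcium channels (median −0.01), Scn8a, the main sodium channel of the axon's initial segment, stood apart at 0.77 ± 0.37, FC 4 (9.14) lying next to HC 3 (9.13).

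**Figure D3:**
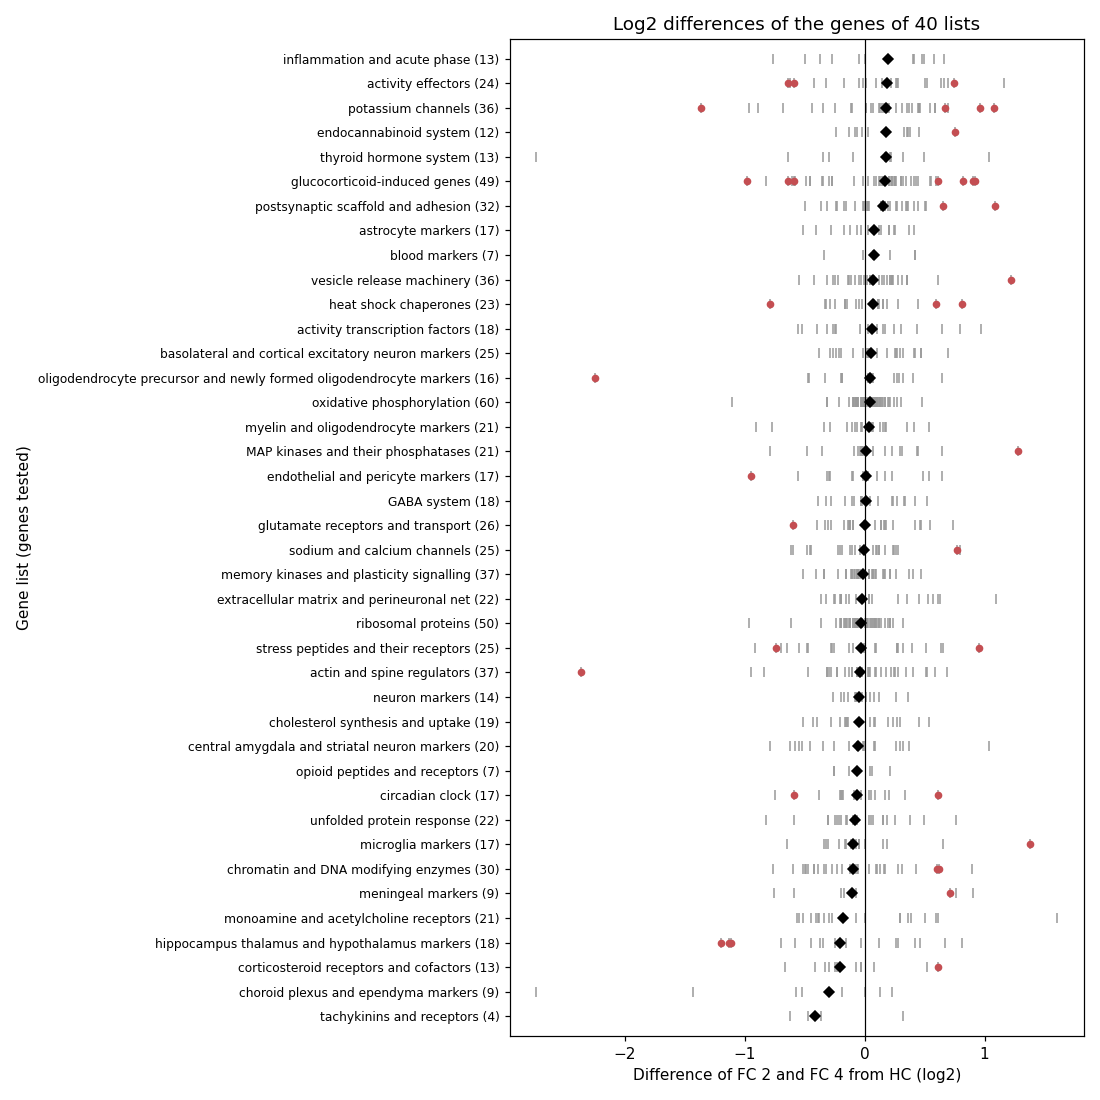
Log2 difference of FC 2 and FC 4 from HC for each gene (grey ticks) of the 40 lists, ordered by their median (black diamonds), with the genes that stand apart in red and the number of tested genes in brackets. Medians run from −0.42 for the 4 tachykinin genes to 0.19, and the potassium channel list holds 3 red points above 0 and 1 below.

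Chromatin, clock and chaperone lists had single genes apart. The shares apart were 6.67%, 11.8% and 13%, beside 5.06% of all genes. Of 30 chromatin enzymes 12 were higher (median −0.10), and Ezh2, the methyltransferase of Polycomb, and Hdac6, the tubulin deacetylase, stood apart at 0.60 ± 0.26 and 0.62 ± 0.28. In the clock list 7 of 17 were higher (median −0.06). Npas2, the partner of Bmal1 in the forebrain, stood apart at 0.61 ± 0.31, detected on 2 of the 4 HC arrays, while Per1 lay below HC. Of 23 heat shock chaperones 12 were higher (median 0.07). Hspb1 (Hsp25) read 6.03, 5.65, 5.50 and 5.15 in HC and 6.41 and 6.38 in FC (0.81 ± 0.30), and Dnajb5 was at 0.59 ± 0.27 with a second probe at −0.12. Hspb6 was lower (−0.79 ± 0.48), with FC 4 (4.98) just under HC 4 (5.02). It was detected on 1 of the 2 FC arrays, and in the fit of all 8 arrays it was at 0.34 ± 0.67.

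The oxidative phosphorylation and ribosomal protein lists lay close to 0. Of 60 oxidative phosphorylation genes 35 were higher with a median of 0.04, and of 50 ribosomal protein genes 23 were higher with a median of −0.03. In both, 0 stood apart. The unfolded protein response (10 of 22 higher, median −0.08), cholesterol synthesis (9 of 19, median −0.05), extracellular matrix (11 of 22, median −0.02), inflammation (8 of 13, median 0.19) and thyroid hormone lists (8 of 13, median 0.17) also had 0 apart. The inflammation median was the highest of the 40 lists, with a list mean of −0.11 on FC 2, 0.31 on FC 4 and −0.16 to 0.11 on the HC arrays. Of all 40 lists, with FC 2 and FC 4, 5 had a mean above every HC array on both FC 2 and FC 4 and 0 had one below. They are the effector, endocannabinoid, scaffold, potassium channel and matrix lists, and the matrix list did so with as many genes lower as higher. Without a group effect, FC 2 and FC 4 would be the highest pair in a share of 0.0667 of the 15 arrangements. They would be the lowest pair in the same share. Counting both directions, 5 of 40 lists is no more than these shares give, so the count is not evidence of a group effect.

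For the cell types of the tissue itself, list medians lay between −0.10 and 0.08. Neuron markers had a median of −0.05 (6 of 14 higher), basolateral and cortical excitatory neurons 0.05 (17 of 25), central amygdala and striatal neurons −0.06 (7 of 20), astrocytes 0.08 (10 of 17), myelin 0.03 (11 of 21), microglia −0.10 (5 of 17), endothelium and pericytes 0.01 (9 of 17) and blood 0.08 (5 of 7). C1qc, a complement component of microglia, read 6.71, 5.88, 5.45 and 5.36 in HC and 7.61 and 6.84 in FC (1.38 ± 0.44), while the summed intensity of the microglia list, 4920 to 5775 in HC and 4778 to 5491 in FC, overlapped. Enpp6, a choline phosphodiesterase of newly formed oligodendrocytes, read 7.85, 8.29, 7.23 and 7.75 in HC and 4.66 and 6.40 in FC (−2.25 ± 0.50). FC 2, where it was not detected, was the lower array. There the summed precursor and newly formed oligodendrocyte list (4312) was also under the HC range of 5102 to 6064. On FC 4 the sum was 5644, inside that range. Of the 16 tested genes of the list 9 were higher, with a median of 0.05. Kcnj8, a pericyte channel, was detected on all 4 HC arrays and on neither FC 2 nor FC 4, at least 1.43-fold lower.

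Markers of tissue beside the amygdala varied between punches. Ttr, the transthyretin of choroid plexus, read 11.52, 11.61, 8.08 and 7.76 in HC and 4.50 and 9.5 in FC. HC 1 and HC 2 were the high arrays and FC 2 the one without a detected signal, and the range of the HC arrays was wider than the difference of −2.74 ± 1.6 between the groups. The choroid plexus and ependyma list had 3 of 9 genes higher, with a median of −0.30, the lowest but for the tachykinins, and meningeal markers had 3 of 9 higher (median −0.11). The summed choroid plexus list was 2670 to 6743 in HC and 3087 to 3154 in FC, and Aqp1, the water channel of that epithelium, overlapped too (−1.44 ± 1.23). Ptgds, a prostaglandin D synthase of meninges and oligodendrocytes, stood apart at 0.71 ± 0.29.

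Of 18 tested markers of hippocampus, thalamus and hypothalamus 3 stood apart (16.7%, beside 5.06% of all genes), each of them lower in FC. In the list 7 were higher (median −0.20). Prox1, a homeobox factor of dentate granule cells, read 8.50, 7.75, 7.14 and 7.82 in HC and 6.56 and 6.79 in FC (−1.13 ± 0.38). Rgs16, a G-protein regulator rich in thalamus, read 6.57, 6.42, 6.28 and 7.13 in HC and 5.34 and 5.63 in FC (−1.11 ± 0.31). Trpc6, a cation channel of the dentate gyrus, was at −1.20 ± 0.39. It was detected on 1 of the 2 FC arrays, and a second probe was at −0.23. The summed list overlapped between groups, 6454 to 7529 in HC and 5880 to 8428 in FC, and the part of neighbouring tissue in the differences above was not tested.

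The 10 genes of smallest unadjusted p in each direction, after some exclusions, belong to none of the 40 lists. Left out were probes without a single gene symbol, predicted or clone-named transcripts, pseudogenes and olfactory receptor genes. Probes detected neither on every HC array nor on every usable FC array were left out too. The genes below are therefore not the smallest p-values of all tested probes. Lower in FC were Onecut2, a homeodomain transcription factor, which read 7.53, 7.37, 7.12 and 7.59 in HC and 5.37 and 5.83 in FC (−1.80 ± 0.27, unadjusted p = 0.000193), and Rian, a maternally expressed noncoding RNA, which read 8.01, 7.61, 8.34 and 8.18 in HC and 6.34 and 6.42 in FC (−1.66 ± 0.28). For both genes the FC arrays lay more than a log2 unit below every HC array. H13, the signal peptide peptidase, was at −1.84 ± 0.31, Nnat, the imprinted neuronatin, at −1.62 ± 0.28, Saal1 at −1.68 ± 0.34, Stk40 at −1.51 ± 0.29, Ptdss1, a phosphatidylserine synthase, at −1.45 ± 0.30, Septin10 at −1.43 ± 0.27 and Twnk, the helicase of mitochondrial DNA, at −1.34 ± 0.25. Ovol2 is the tenth, with the bound given above. H13, Saal1 and Septin10 were detected on 1 of the 2 FC arrays.

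Higher in FC were Saxo2, a microtubule-binding protein, which read 5.19, 4.85, 5.20 and 6.19 in HC and 7.89 and 7.29 in FC (2.23 ± 0.41), Acot3, a peroxisomal thioesterase (1.90 ± 0.36), and Klhl24, a ubiquitin ligase adaptor (1.71 ± 0.36). Cdc42se1, an effector of Cdc42, was at 1.57 ± 0.33, Prkd2, a protein kinase D, at 1.43 ± 0.29, Psmd5, a proteasome assembly chaperone, at 1.42 ± 0.28, Fbxo27 at 1.37 ± 0.27, Erf, an ETS repressor, at 1.30 ± 0.27, Rbak at 1.27 ± 0.23 and Thsd7a at 1.17 ± 0.24. Acot3 and Prkd2 were detected on 2 of the 4 HC arrays, and Saxo2, Cdc42se1, Psmd5 and Thsd7a on 3. The HC levels of these genes therefore lie near background. All 20 probes stood apart, by the same values that chose them. Of the 20 genes, 8 are named here by a probe that is not their brightest. Of the 12 that have another tested probe, that probe had the opposite sign in 7, among them Klhl24 (−0.38), Saxo2 (−0.40) and Nnat (0.31).

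Of the 71 genes described, 44 were detected on neither FC 1 nor FC 3, and 22 had the opposite sign in the fit of all 8 arrays. Of the 55 that stood apart, 16 turned. Among them were Fkbp5 (−0.85 ± 0.69), Mfsd2a (−0.81 ± 0.86) and Mertk (−0.26 ± 0.56). Of the channel genes, Kcnip1 (−0.45 ± 0.68), Kcnj2 (−0.93 ± 0.74) and Scn8a (−0.67 ± 0.84) turned as well. So did Ptgds (−0.96 ± 0.76), Npy2r (0.27 ± 0.60), Unc13b (−0.30 ± 0.71) and Hdac6 (−0.38 ± 0.52). Scg2 (−0.72 ± 0.58), Kcna4 (−1.30 ± 0.45), Rflnb (−2.33 ± 0.48) and Enpp6 (−2.15 ± 0.46) stayed lower. The last 3 of these were detected on neither FC 1 nor FC 3. Scg2 was detected on both, and the 2 arrays fell on opposite sides of HC. In that fit it read 10.66 on FC 1 and 7.68 on FC 3, beside 9.58 to 9.93 in HC. Of the 19 lists with a median above 0 with FC 2 and FC 4, 1 had one above 0 with all 8 arrays. The median over all genes was −0.41 there.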

How the data were processed

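RNA of amygdala punches was labelled with biotin and hybridised to single-colour Illumina mouse bead arrays, with RNeasy Mini purification and Ambion MessageAmp labelling per the labels' protocols. Per the file headers, the authors deposited a signal intensity and a detection p-value for each array and probe. A table of linear normalized intensity was deposited too, by a method not given in the sources used here, which served as an alternative. Probe genes came from the platform annotation: 34885 probes had 1 symbol, 18 several and 10378 none, and 3445 tested probes were counted without a name.

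Signals were background corrected from the detection p-values (limma 3.58.1 in R 4.3.3, offset 16), quantile normalized over the arrays of each fit and put on the log2 scale. One linear model per fit, with a mean per group and 4 (6 arrays) or 6 (8 arrays) residual degrees of freedom, gave moderated p-values, with Benjamini-Hochberg adjustment across the 20951 probes tested. A gene in a list is its brightest tested probe. The 40 lists hold 1142 genes, 843 of them tested. Named genes include the 10 of smallest unadjusted p per direction, after the exclusions stated where they are listed. The others are up to 4 of each list that stood apart (otherwise of smallest p), and a panel of activity, stress and peptide genes. Only part of the named genes is described. Of 141 genes under this rule, 55 stood apart and 50 reached the smallest exact permutation p, two-sided and with n = 2 and n = 4, and the lowest value after Benjamini-Hochberg adjustment over them was 0.188. The members and lists were chosen with earlier results of these data known. The fit was tested on simulated data. Of the deposited value columns 0 were unmapped.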

Additional observations from a re-analysis of the deposited data

Results flagged for a closer look

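Within the 4 HC arrays, 1 array lay far from the other 3 by Dixon's criterion (the gap to the nearest array over the whole range) for 2 of the genes named, out of 75 groups of 4 arrays examined, where chance flags about 1 group in 20. Sgk3 read 8.45 on HC 4 and 7.18 to 7.27 on the other HC arrays, and without HC 4 its difference was −0.67 in place of −0.98. Acot3 read 4.42 on HC 4 and 4.89 to 4.95 on the others, all near background, and without HC 4 its difference was 1.77 in place of 1.90.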

How the results depend on the processing

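Under each alternative 0 probes passed an adjusted p under 0.05 in both fits, also at 0.1, except that 2 (both Cd180) passed with FC 2 and FC 4 and no detection filter. The count at unadjusted p under 0.05 with FC 2 and FC 4 was 1896 without the filter, 630 with a stricter one, 604 with array weights, 491 with 1 probe per gene, and 531 to 3009 leaving out single arrays. With all 8 arrays it was 2591 with median scaling, 795 with cyclic loess, 162 with the stricter filter, 988 with array weights, 3701 with the IMO_FC arrays, 771 with 1 probe per gene, and 427 to 5244 leaving out arrays. Of probes, 522 stood apart higher and 623 lower, against 278 and 302 without background correction, 269 and 328 with the stricter filter, 247 and 266 in the authors' normalized values, 234 and 313 with 1 probe per gene, 187 and 204 at 2-fold, and 765 to 3209 and 816 to 3739 leaving out arrays. The cause of these shifts was not tested, beyond the numbers of probes and arrays that enter.

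Of 1194 recomputed differences of the 71 named genes in the fit with FC 2 and FC 4, 31 changed sign and 0 passed the test. Leaving out FC 2 moved 26 of the 71 over 1.5 times or across 0, and FC 4 moved 14. By a second tested probe the signs turned for Cdc42se1 (−0.20), Cnr1 (−0.051), Dnajb5 (−0.12), Erf (−0.091), Kcnip1 (−0.25), Kcnj6 (−0.46), Klhl24 (−0.38), Nnat (0.31), Nr3c2 (0.62), Oprl1 (0.86), Saxo2 (−0.40), Sgk3 (0.54), Thsd7a (−0.29) and Twnk (0.13). This alternative was chosen after seeing the data. Leaving out single arrays gave −0.86 to 0.0062 for Arc, −0.51 to 0.10 for Nr3c1, −0.66 to 0.054 for Nr3c2, −0.56 to 0.47 for Nr4a1, −0.55 to 0.43 for Penk, −0.93 to 0.66 for Pnoc, −1.03 to 0.047 for Sgk1 and −0.64 to 1.27 for Tac2. Array weights turned Penk (0.033). Of 40 list medians 11 kept their sign under every alternative of the fit with FC 2 and FC 4, among them glucocorticoid-induced genes (0.0474 to 0.229), activity effectors (0.0422 to 0.228), postsynaptic scaffolds (0.0633 to 0.224) and potassium channels, and 29 did not. With all 8 arrays these 4 medians were −0.67, −0.45, −0.62 and −0.55, beside −0.41 over all genes.

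With the replicate number as a block, 0 probes were called in either fit, 1015 and 1957 had an unadjusted p under 0.05, and Nr4a1 (0.26), Penk (0.34) and Pnoc (0.17) turned. Arrays of the same number deviated together by r = −0.00286 to 0.0903 over 8 arrays, and by 0.145 and 0.0879 for numbers 2 and 4 of the 6, so the numbers were not taken to pair the arrays. A slide block was not run, since no slide is named. Near-background signal limits the genes read under about 5 on the log2 scale.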
